A study of Mus musculus with 13 samples.

Results

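The *Slc25a* genes encode carriers of the mitochondrial inner membrane, and their transcripts were measured in gluteal WAT, a posterior subcutaneous fat depot, of male C57BL/6J mice. A gene was included when its Ensembl identifier, without the version, matched a mouse symbol that starts with *Slc25a*. Of 48 such genes, 1 pseudogene was dropped, which left 47 of the 34419 genes in the count table. The study asked how white fat adapts to a cool environment. From birth until they were 13 weeks old, mice lived at 22°C (n = 7) or at the thermoneutral temperature of 29°C (n = 6), and in both groups posterior hair was removed after weaning. Each mouse had a cage of its own, in which bedding was kept sparse and nothing was given for building a nest. The labels give no transgene or drug, and housing temperature is the only difference that the labels give between the groups. Total RNA of each mouse was sequenced as 1 library, and mice are the replicates.

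Carriers of this family are small proteins of 3 similar repeats that move metabolites, nucleotides, cofactors and ions across the inner membrane, usually by exchanging one for another. Adenine nucleotide translocases pass ATP out against ADP, the phosphate carrier supplies phosphate for ATP synthesis, and the carnitine carrier brings acylcarnitines to the enzymes of fatty acid oxidation. In white fat the family also serves lipid synthesis, because the citrate carrier exports citrate, from which the cytosol makes acetyl-CoA. The uncoupling proteins belong to the same protein family but have symbols of their own, and are described here only beside the *Slc25a* genes.

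Windows of 250 bases before the RefSeq start site are shown for *Slc25a20*, which passed the test between temperatures, and for *Slc25a12* and *Slc25a34*, which had the highest fold changes of the family. The sequences come from RefSeq on GRCm38.p6, run 5′ to 3′ on the strand of the gene, and lie at chr9:108661886-108662135 (plus strand), chr2:71367756-71368005 (minus strand) and chr4:141623835-141624084 (minus strand). Capitals mark matches to 4 short motifs searched on both strands, namely the nuclear receptor half-site AGGTCA or TGACCT, the myogenic E-box CAGCTG, the CCAAT box CCAAT or ATTGG, and the GC box GGGCGG or CCGCCC.
Slc25a20: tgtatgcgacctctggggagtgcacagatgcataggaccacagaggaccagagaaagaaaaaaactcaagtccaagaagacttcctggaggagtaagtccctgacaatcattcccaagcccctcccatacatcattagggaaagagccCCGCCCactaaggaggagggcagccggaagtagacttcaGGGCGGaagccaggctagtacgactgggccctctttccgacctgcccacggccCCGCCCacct
Slc25a12: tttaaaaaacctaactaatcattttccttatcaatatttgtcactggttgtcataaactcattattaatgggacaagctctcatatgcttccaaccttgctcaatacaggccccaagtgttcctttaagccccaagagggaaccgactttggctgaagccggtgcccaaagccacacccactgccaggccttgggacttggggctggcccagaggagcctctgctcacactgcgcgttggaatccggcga
Slc25a34: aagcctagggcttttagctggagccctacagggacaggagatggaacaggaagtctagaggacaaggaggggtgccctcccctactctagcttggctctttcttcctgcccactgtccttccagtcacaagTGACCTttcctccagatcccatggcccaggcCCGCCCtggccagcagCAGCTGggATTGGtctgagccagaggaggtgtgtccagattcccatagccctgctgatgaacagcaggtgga
The *Slc25a20* window holds 3 GC boxes, the *Slc25a34* window holds 1 match of each of the 4 motifs, and the *Slc25a12* window holds none. Over 46 windows of 36 members, GC boxes were in 69.6% and CCAAT boxes in 45.7%, against 32.7% and 33.8% of the 32817 mouse windows of the same length. The half-site and the E-box were each in 8.7% of member windows, against 14% and 13% of all windows. A match describes letters only and does not show that a factor binds there.

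Library totals were between 22356637 and 25245785 counts, in a cluster of 5 libraries at 22°C (22356637 to 22857079) and a cluster of 8 from both temperatures (24821549 to 25245785), so that only 2 mice at 22°C, replicates 6 and 7, can be compared with 29°C at similar totals. The 8 adipocyte markers were abundant in every library, with summed levels of 12362.5 to 19001 CPM (counts scaled to library size) at 22°C and 15401 to 19468 CPM at 29°C. Skeletal muscle RNA varied far more. The summed level of 38 muscle genes was 1101 to 108653 CPM at 22°C (median 8790) and 194 to 8820 CPM at 29°C (median 1983), and only 22°C replicates 1, 4 and 7 were above 8820 CPM. All 38 muscle genes were higher by sign at 22°C, none passed the test (29 had an unadjusted p below 0.05, and DESeq2 called 26, beside 10.2% of all genes with an adjusted p in DESeq2, 5.58% higher and 4.65% lower), none was at 0 in all libraries, and 3 were at 0 in at least 1 library. Of the other marker lists, brown and beige fat genes summed to 88.1 to 395 CPM at 22°C and 65.1 to 105 CPM at 29°C. Of 11 tested genes 9 were higher by sign, and *Elovl3* and *Prdm16* were lower. An unadjusted p below 0.05 was found for 7 (18.5% of all genes), and DESeq2 called 7 (10.2% of all genes). The 3 called higher in edgeR were *Cidea* (log2FC 2.51; P-adj = 0.0199), *Cox8b* (2.27; P-adj = 0.0827) and *Otop1* (2.92; P-adj = 0.0596). Over all genes tested, 0.731% were called higher and 1.21% lower. *Cidea* and *Cox8b* did not overlap between groups, being higher in every mouse at 22°C, as were 0.495% of all genes. *Cpt1b*, a muscle isoform on this list, and *Cox8b* were 107 and 110 CPM in 22°C replicate 1, which is rich in muscle RNA. The part of muscle RNA in these sums was not tested. Of the adipocyte markers 5 of 8 were lower by sign at 22°C and 1 was called lower, *Lep*, the gene of the hormone leptin (log2FC -0.78; P-adj = 0.0564, edgeR), and of 6 tested lymphocyte markers 1 was called higher, the T cell gene *Cd3e* (log2FC 1.78; P-adj = 0.0817, edgeR). The genes named here from the marker lists were named after their values were seen. Red blood cell genes reached 3370 CPM in 1 mouse at 29°C. In whole tissue, fewer cells of a type and less RNA per cell cannot be told apart.

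At 22°C and 29°C alike, transcripts of the family made up a small part of the total, 0.292% to 0.377% of counts at 22°C and 0.254% to 0.388% at 29°C. Per kilobase of exon, the most abundant members were *Slc25a1*, the citrate carrier, at 179 CPM per kb over all mice, *Slc25a4*, the muscle and heart adenine nucleotide translocase ANT1, at 147, *Slc25a5*, the widely expressed translocase ANT2, at 135, and *Slc25a10*, a dicarboxylate carrier, at 105 CPM per kb. *Slc25a39*, needed for glutathione import, and *Slc25a3*, the phosphate carrier, followed at 64.2 and 60.9 CPM per kb. The place of *Slc25a4* differed between groups. It was 194 ± 158 CPM per kb at 22°C, where replicates 1 and 7 had 891 and 1088 CPM. At 29°C it was 92.3 CPM per kb, below *Slc25a1* (166), *Slc25a5* (134) and *Slc25a10* (113). The levels per kb of *Slc25a1*, *Slc25a4*, *Slc25a5* and *Slc25a10* overlapped within their SD in each group. The lowest tested member, *Slc25a48*, was at 0.19 CPM per kb.

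**Figure D1:**
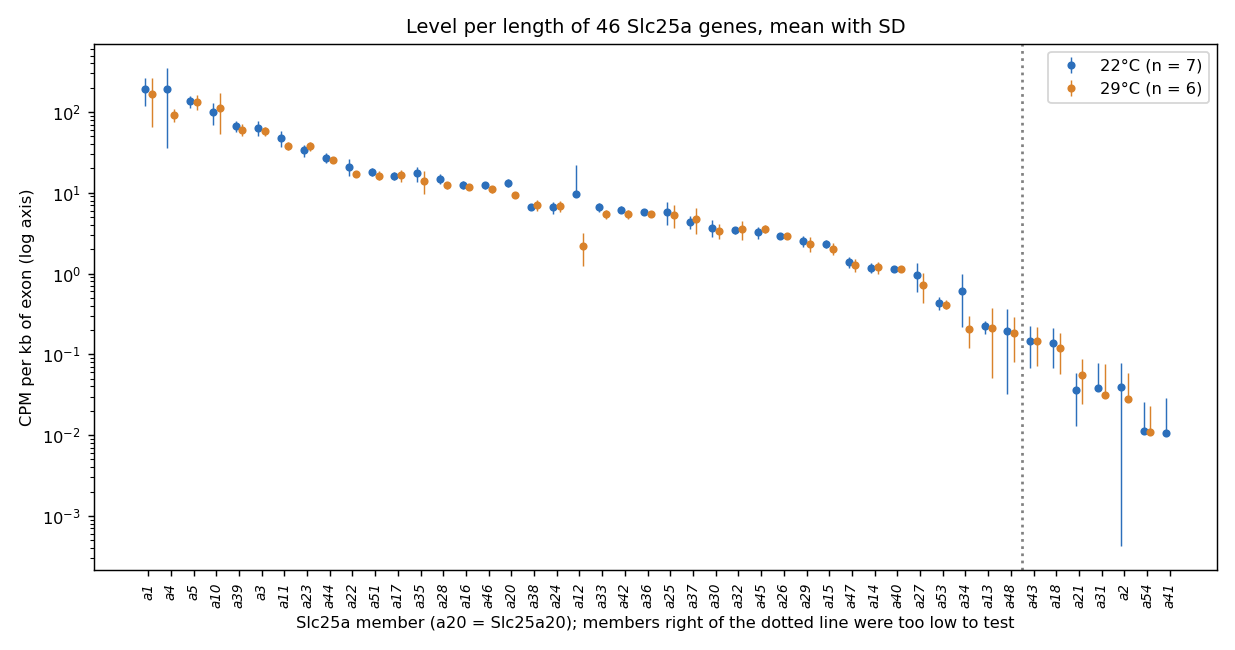
Mean level per length (CPM per kb of exon, log axis) of 46 *Slc25a* genes in mice at 22°C (blue, n = 7) and 29°C (orange, n = 6), with SD as bars and the lower bar left out where the SD exceeds the mean (*Slc25a41* at 29°C, with 0 counts, is not drawn). Levels run from about 179 CPM per kb for *Slc25a1* down to genes with a few counts in all, and the 7 members right of the dotted line were too low to test.

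To compare temperatures, edgeR's quasi-likelihood test was fitted over the 17779 genes that passed a filter on low counts, which 40 members passed and 7 did not. The log2 fold change (log2FC) is 22°C relative to 29°C, P-adj is adjusted over all genes tested, and P-adj below 0.1 is the threshold. *Slc25a20* rose at 22°C, and no other member passed. That is 1 of 40 tested members (2.5%), where 1.94% of all genes tested passed (0.731% higher and 1.21% lower). *Slc25a20* was also the only member whose levels did not overlap between temperatures, against 1.24% of all genes (0.495% higher and 0.748% lower). At an unadjusted p below 0.05 there were 10 members (25%), of which 9 were higher and 1 was lower, against 18.5% of all genes (10.3% higher and 8.20% lower). The share of members with an unadjusted p below 0.05 was thus somewhat above that of all genes, and the share that passed P-adj was close to it.

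By sign, 30 of 40 tested members (75%) were higher at 22°C, compared with 51.6% of all genes tested. The median log2FC of the members was 0.12, with quartiles of -0.0016 and 0.22, and that of all genes was 0.0074, with quartiles of -0.13 and 0.16. In 37 of 40 members the log2FC was under 0.5 in size, and the median standard error (SE) was 0.13. The lean of the family to 22°C moved with the libraries compared. Its median was 0.0237 with the totals cluster as a covariate and 0.0157 among libraries with higher totals only, where 22 and 21 of 40 members were higher. With the mean log2 CPM of the 38 muscle genes as a covariate the median was 0.0953, with 27 members higher. Without the 3 libraries highest in muscle counts it was 0.0709, with 26 higher. With the replicate number as a block it was 0.12, with 32 higher.

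**Figure D2:**
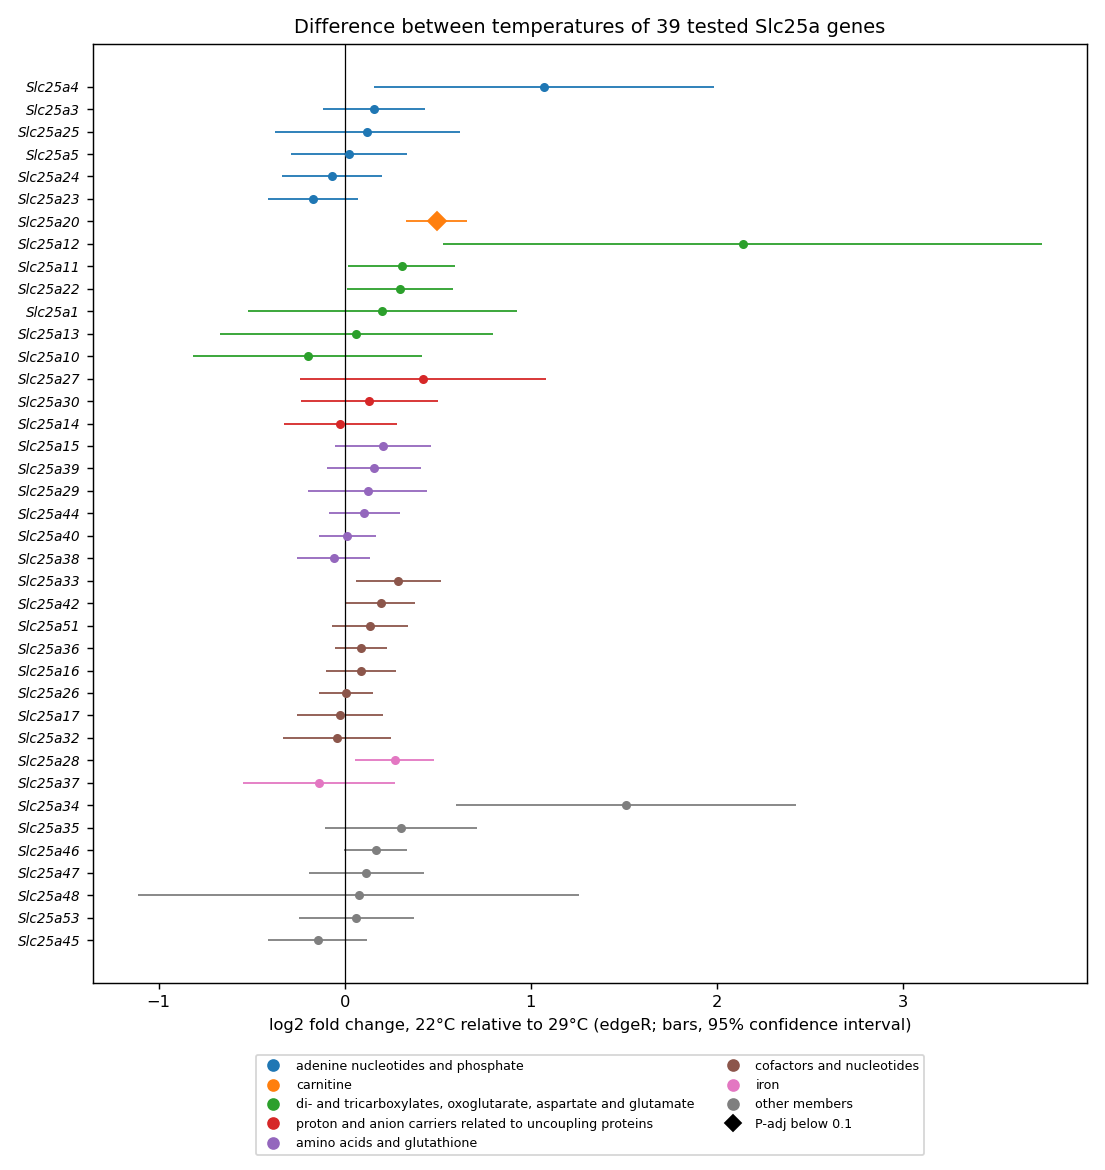
Log2FC of 39 tested *Slc25a* genes, 22°C relative to 29°C, grouped by substrate (colors), with 95% confidence intervals from edgeR as bars. *Slc25a20* (diamond) is the member with P-adj below 0.1, and the widest intervals among the higher fold changes belong to *Slc25a12*, *Slc25a34* and *Slc25a4*.

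*Slc25a20* (ENSMUSG00000032602.7) encodes the carnitine-acylcarnitine carrier, the step of the carnitine shuttle between CPT1 on the outer membrane and CPT2 inside. Its level in the mice at 22°C was 74.6, 58.7, 71.5, 62.5, 64.3, 60.1 and 57.4 CPM, and at 29°C it was 46.8, 41.8, 42.8, 42.6, 48.0 and 51.5 CPM. The lowest mouse at 22°C was thus above the highest at 29°C. The means were 64.1 ± 6.57 CPM (SD, n = 7) and 45.6 ± 3.82 CPM (SD, n = 6), which gives a ratio of 1.41 and a log2FC of 0.49 (SE 0.075; 95% confidence interval 0.33 to 0.66; P-adj = 0.0174, edgeR). These levels rest on 1272 to 1582 counts per library at 22°C and 1085 to 1228 at 29°C. The gene kept its call in each of 13 fits that left out 1 mouse, with P-adj between 0.0156 and 0.0623.

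Taking muscle RNA into account changed the value little. With the muscle score, the mean log2 CPM of the 38 muscle genes, as a covariate, its log2FC was 0.50 (P-adj = 0.0642, edgeR), and without the 3 libraries highest in muscle counts it was 0.47 (P-adj = 0.0758). The remaining 4 mice at 22°C had 63.6 ± 5.79 CPM (SD, n = 4). At similar library totals the fold change was smaller. In the 2 mice at 22°C from the cluster with higher totals the levels were 60.1 and 57.4 CPM. Against the 6 mice at 29°C their log2FC was 0.36 (P-adj = 0.265, edgeR). With the cluster as a covariate it was 0.37 (P-adj = 0.234), so the call was lost in both fits, and over all alternatives run P-adj ranged from 6.48e-06 with DESeq2 to 0.265.

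The other genes of the carnitine shuttle were read from a list of 13, all of which were tested. Of these, 8 were higher and 5 lower by sign, with a median log2FC of 0.026, and none passed in edgeR (P-adj at least 0.154). An unadjusted p below 0.05 was found for 3 of them, and DESeq2 called 3, against shares of 18.5% and 10.2% over all genes. *Cpt1a*, the outer-membrane acyltransferase of liver and many other tissues, was 58.5 ± 10.5 CPM at 22°C and 62.7 ± 9.04 CPM at 29°C (log2FC -0.10, SE 0.13). *Cpt2*, the inner acyltransferase, was 173 ± 29.7 and 165 ± 28.2 CPM (log2FC 0.07, SE 0.13). *Crat*, carnitine acetyltransferase, had a log2FC of 0.18 (SE 0.12), and *Crot*, the peroxisomal octanoyltransferase, one of -0.12 (SE 0.097). The carnitine importers of the cell membrane *Slc22a5* and *Slc22a4* had log2FCs of -0.07 (SE 0.093) and 0.03 (SE 0.14), and the brain isoform *Cpt1c* one of 0.02 (SE 0.21).

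Long-chain acyl-CoA synthetases supply the acyl groups of that shuttle. *Acsl1*, the most abundant of them in these libraries by CPM, was 2009 ± 500 CPM at 22°C and 1805 ± 537 CPM at 29°C (log2FC 0.15, SE 0.20). *Acsl3* and *Acsl4* had log2FCs of 0.08 (SE 0.22) and -0.0064 (SE 0.090), and *Acsl5* was 50.9 ± 4.77 and 59.0 ± 5.62 CPM (log2FC -0.21, SE 0.076; P-adj = 0.185, edgeR; 0.0950 with DESeq2). *Cpt1b*, the muscle isoform, and *Acsl6* had the highest fold changes of the list, 2.41 (SE 0.77; P-adj = 0.154) and 2.80 (SE 1.15; P-adj = 0.221) on the log2 scale. Both were far above the other mice in the 3 libraries with the most muscle RNA, where *Cpt1b* was 26.5 to 112 CPM and *Acsl6* 11.3 to 35.6 CPM, against at most 14.5 and 2.57 CPM in the other 4 mice at 22°C.

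**Figure D3:**
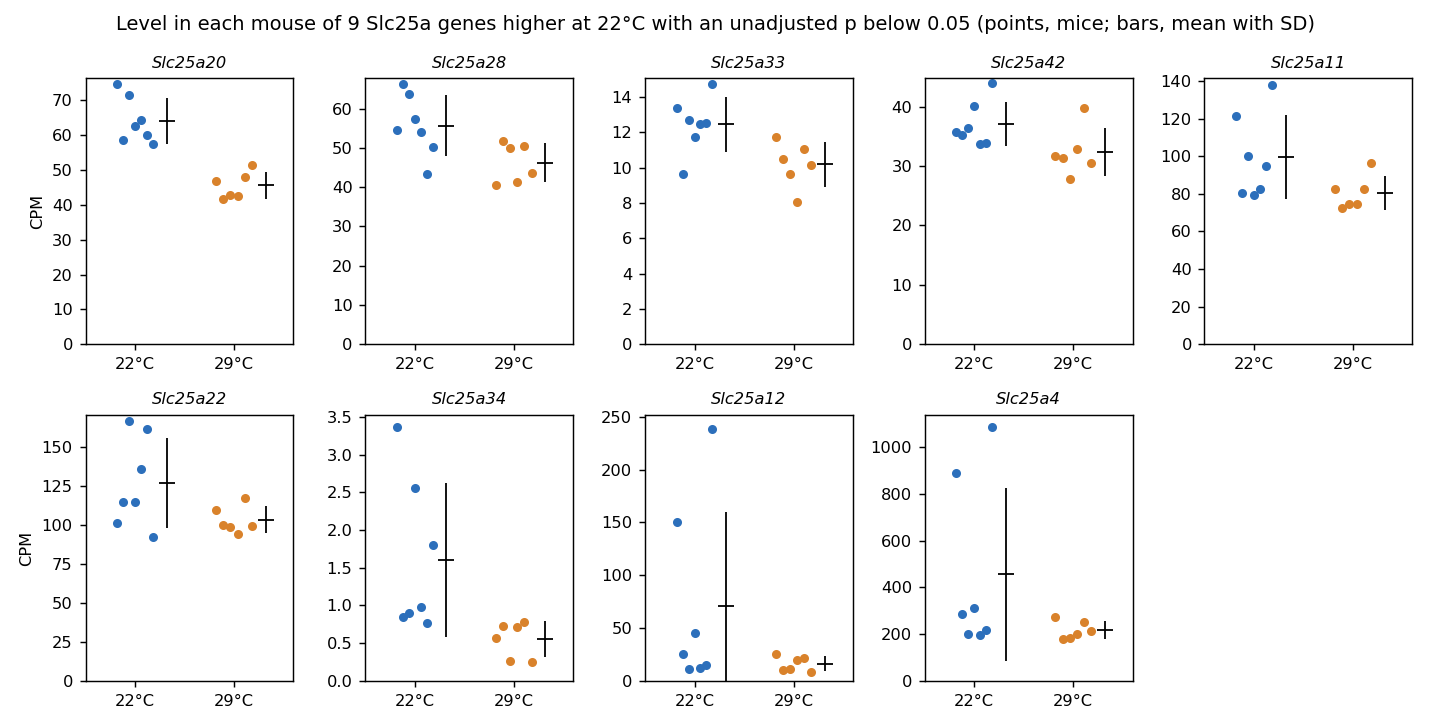
Level (CPM) in each mouse of 9 *Slc25a* genes higher at 22°C with an unadjusted p below 0.05, with points for mice at 22°C (blue, n = 7) and 29°C (orange, n = 6) and crosses for the mean with SD (the bar of *Slc25a12* at 22°C is cut at 0). *Slc25a20* separates the groups, and *Slc25a12* and *Slc25a4* are far higher in 2 mice at 22°C than in the others.

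Of the carriers of adenine nucleotides and phosphate, 6 of 8 were tested, 4 were higher and 2 lower by sign, and none passed in edgeR or DESeq2. An unadjusted p below 0.05 was found for 1 (18.5% of all genes). *Slc25a4* (ENSMUSG00000031633.5) was between 196 and 1088 CPM at 22°C (median 288) and between 180 and 274 CPM at 29°C (median 206.) Replicates 1 and 7 at 22°C, at 891 and 1088 CPM, stood apart, and the other 5 mice at 22°C reached at most 312 CPM. Its log2FC was 1.07 (SE 0.42; P-adj = 0.210, edgeR), and it was 0.09 with the muscle score as a covariate and 0.0445 without the 3 libraries highest in muscle counts. The 4 remaining mice at 22°C had 225 ± 43.0 CPM, beside 217 ± 37.9 CPM (SD, n = 6) at 29°C.

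*Slc25a5* was at 223 ± 38.1 CPM at 22°C and 220 ± 47.4 CPM at 29°C (log2FC 0.02, SE 0.14, 95% confidence interval -0.29 to 0.33). Within each mouse, *Slc25a4* made up 43.5% to 86.6% of the CPM of both translocases at 22°C (median 59.2%) and 41.2% to 54.7% at 29°C (median 51.7%). The log2 ratio of *Slc25a4* to *Slc25a5* was 0.69 ± 1.14 at 22°C and -0.0100 ± 0.30 at 29°C, a difference of 0.70 that did not pass a two-sided exact permutation test over all 1716 splits (p = 0.193; P-adj = 0.353 over 4 pairs). *Slc25a31*, the testis translocase, had 23 counts in all 13 libraries and was not tested.

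*Slc25a3*, the phosphate carrier, was 355 ± 71.1 CPM at 22°C and 319 ± 38.2 CPM at 29°C (log2FC 0.16, SE 0.13). The ATP-magnesium/phosphate carriers, which set the adenine nucleotide pool of the matrix, did not pass either. *Slc25a23*, the most abundant of them, had a log2FC of -0.17 (SE 0.11), *Slc25a24* one of -0.07 (SE 0.13) and *Slc25a25* one of 0.12 (SE 0.23). *Slc25a24* was 34.98% of the CPM of *Slc25a24* and *Slc25a25* in the median mouse at 22°C and 36.2% at 29°C (difference of log2 ratios -0.20; exact permutation p = 0.483, P-adj = 0.483). *Slc25a25* was at its highest, 72.3 CPM, in 22°C replicate 7, and without the 3 libraries highest in muscle counts its log2FC turned to -0.21. *Slc25a41* had 2 counts, both at 22°C. A count of 0 allows up to 0.113 to 0.126 CPM in the libraries at 29°C, for counting error only.

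**Figure D4:**
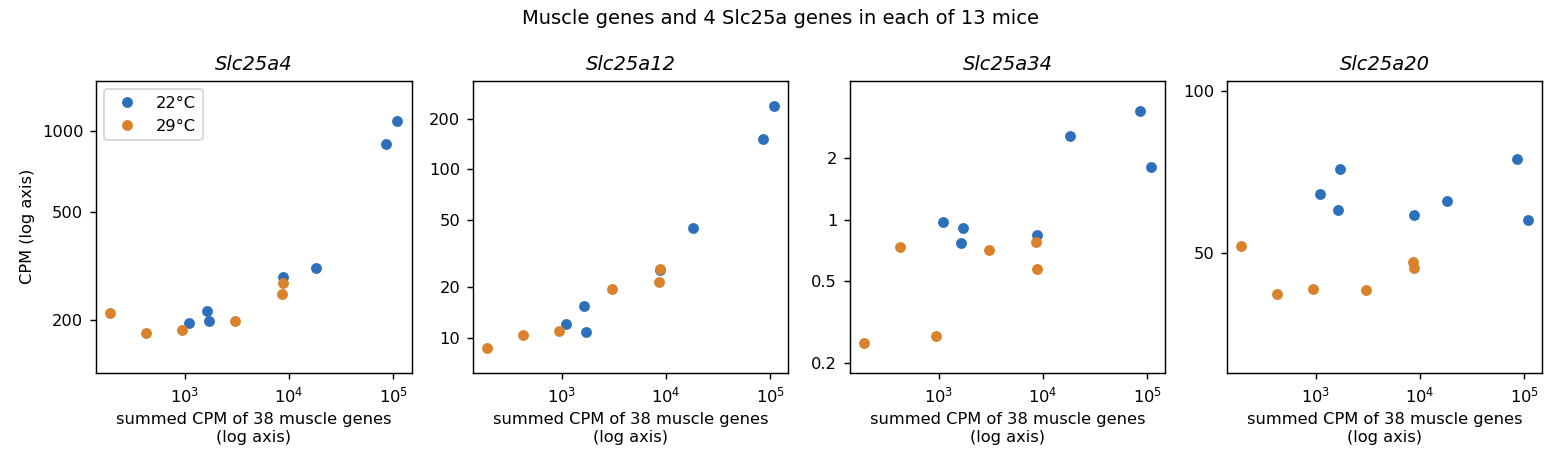
Level (CPM, log axis) of *Slc25a4*, *Slc25a12*, *Slc25a34* and *Slc25a20* in each of 13 mice against the summed CPM of 38 muscle genes (log axis), with mice at 22°C in blue and at 29°C in orange. The levels of *Slc25a4* and *Slc25a12* are highest in the mice with the most muscle RNA, whereas *Slc25a20* stays between 57.4 and 74.6 CPM at 22°C and between 41.8 and 51.5 CPM at 29°C over the whole range.

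Carriers of dicarboxylates, tricarboxylates, oxoglutarate, aspartate and glutamate had the highest median of the groups with several members, a log2FC of 0.25 over 6 tested genes of 8, with 5 higher and 1 lower by sign. None passed in edgeR, 3 had an unadjusted p below 0.05 (18.5% of all genes), and DESeq2 called 1 (10.2% of all genes). *Slc25a12* (ENSMUSG00000027010.17), the aspartate-glutamate carrier aralar of the malate-aspartate shuttle, was between 10.9 and 239 CPM at 22°C (median 25.2) and between 8.74 and 25.8 CPM at 29°C (median 15.3.) The 3 libraries with the most muscle RNA had 150, 45.2 and 239 CPM, and the other 4 mice at 22°C had 15.9 ± 6.50 CPM, beside 16.1 ± 7.01 CPM at 29°C. Its log2FC of 2.14 (SE 0.75; P-adj = 0.177, edgeR; 0.0559 with DESeq2 and 0.0559 to 0.995 over all alternatives) became -0.0154 with the muscle score as a covariate and -0.0298 without those 3 libraries. *Slc25a13*, its paralog citrin, which is the liver form, was low, at 0.840 ± 0.155 and 0.804 ± 0.609 CPM (log2FC 0.06, SE 0.34). It had 12 to 26 counts per library at 22°C and 11 to 54 at 29°C. *Slc25a12* was thus 93.2% to 99.7% of the CPM of the pair at 22°C and 90.6% to 98.3% at 29°C (difference of log2 ratios 1.05; exact permutation p = 0.265, P-adj = 0.353).

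*Slc25a1* and *Slc25a10*, which are abundant in fat, varied among mice more than between temperatures. *Slc25a1* was between 274 and 709 CPM at 22°C (median 388) and between 158 and 779 CPM at 29°C (median 301; log2FC 0.20, SE 0.34; P-adj = 0.788, edgeR). *Slc25a10* was between 208 and 507 CPM at 22°C (median 311) and between 207 and 802 CPM at 29°C (median 329; log2FC -0.20, SE 0.29; P-adj = 0.753). When each mouse was left out, the log2FC of *Slc25a1* ran from 0.019 (without 22°C replicate 1) to 0.59 (without 29°C replicate 6), and that of *Slc25a10* from -0.33 (without 29°C replicate 4) to 0.14 (without 29°C replicate 6). For both genes, the lowest and the highest of all 13 mice were at 29°C, in replicates 4 and 6, and differed 4.93-fold and 3.87-fold. The cytosolic enzymes *Acly*, which splits citrate to acetyl-CoA, and *Me1*, which converts malate to pyruvate, were also lowest and highest in these 2 mice among those at 29°C, at 142 and 1056 CPM for *Acly* and 197 and 923 CPM for *Me1*. Among mice at 22°C, replicate 1 was the highest in *Slc25a1*, *Acly* and *Me1*, at 709, 1689 and 1491 CPM.

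*Slc25a11*, the oxoglutarate-malate carrier of the malate-aspartate shuttle, was between 79.6 and 138 CPM at 22°C (median 94.6) and between 72.2 and 96.4 CPM at 29°C (median 78.7). Its log2FC was 0.31 (SE 0.13; P-adj = 0.243, edgeR), and 0.14 without the 3 libraries highest in muscle counts, which included its 2 highest mice. *Slc25a22*, a glutamate carrier, was between 92.3 and 166 CPM at 22°C (median 115) and between 93.8 and 117 CPM at 29°C (median 99.6), with a log2FC of 0.30 (SE 0.13; P-adj = 0.255). Here the 2 highest mice were 22°C replicates 3 and 6, which had low muscle counts, and the log2FC without the 3 muscle-rich libraries was 0.48. Its paralog *Slc25a18* had 78 counts in all and was not tested, so that *Slc25a22* was at least 99.5% of the pair in every mouse. *Slc25a21*, the oxodicarboxylate carrier, had 71 counts in all and was not tested.

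The enzymes that work with these carriers were a list of 8, all tested and all higher by sign (median log2FC 0.46). None of these enzymes passed in edgeR. An unadjusted p below 0.05 was found for 2 (18.5% of all genes), and DESeq2 called 1 (10.2% of all genes). *Got1*, the cytosolic aspartate aminotransferase of the malate-aspartate shuttle, was 29.8 to 139 CPM in the 3 libraries richest in muscle RNA and 8.64 to 18.2 CPM in the other 4 mice at 22°C, against 7.40 to 19.9 CPM at 29°C. The part of muscle RNA in these values was not tested.

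Members related to the uncoupling proteins were all low, and none of the 3 passed in edgeR or DESeq2 or had an unadjusted p below 0.05. *Slc25a30*, the most abundant of them per length, was 16.8 ± 4.02 CPM at 22°C and 15.4 ± 3.26 CPM at 29°C (log2FC 0.13, SE 0.17). *Slc25a27* had a log2FC of 0.42 (SE 0.31), with 4.15 to 5.68 CPM in the 3 muscle-rich libraries and 1.76 to 4.06 CPM in the other 4 mice at 22°C, and *Slc25a14* had one of -0.02 (SE 0.14). Of the uncoupling proteins themselves, *Ucp1*, the proton carrier of brown and beige fat, had 13 counts over the 7 mice at 22°C and 0 counts at 29°C, and could not be tested. *Ucp2* was 119 ± 21.6 and 130 ± 38.4 CPM (log2FC -0.13, SE 0.17), and *Ucp3* was 26.4 ± 7.77 and 27.6 ± 3.88 CPM (log2FC -0.06, SE 0.19). The carrier-like outer-membrane proteins *Mtch1* and *Mtch2* had log2FCs of -0.02 (SE 0.066) and 0.20 (SE 0.14).

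Among carriers of amino acids and glutathione, 6 of 7 were tested, 5 were higher and 1 lower by sign, and none had an unadjusted p below 0.05 or a call by DESeq2. *Slc25a39*, the most abundant, was 186 ± 28.2 CPM at 22°C and 166 ± 26.9 CPM at 29°C (log2FC 0.16, SE 0.12), while its relative *Slc25a40* was 9.59 ± 0.57 and 9.51 ± 0.68 CPM (log2FC 0.01, SE 0.071). *Slc25a40* had the narrowest spread of the 40 tested members, with 1.18-fold between its lowest and highest mouse. *Slc25a44*, which carries branched-chain amino acids and is known from brown fat, was 97.2 ± 13.0 and 90.4 ± 7.91 CPM (log2FC 0.11, SE 0.088; P-adj = 0.558, edgeR). The ornithine carrier *Slc25a15* had a log2FC of 0.21 (SE 0.12), the basic amino acid carrier *Slc25a29* one of 0.12 (SE 0.15), and the glycine carrier *Slc25a38* one of -0.06 (SE 0.091). *Slc25a2*, a second ornithine carrier, had 15 counts in all and was not tested.

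All 9 carriers of cofactors and nucleotides were tested, 6 were higher and 3 lower by sign, and none passed in edgeR. An unadjusted p below 0.05 was found for 3 (18.5% of all genes), of which 2 were higher. DESeq2 called 1 (10.2% of all genes). *Slc25a33*, a pyrimidine nucleotide carrier, was between 9.61 and 14.7 CPM at 22°C (median 12.5) and between 8.07 and 11.7 CPM at 29°C (median 10.3), with a log2FC of 0.29 (SE 0.11; P-adj = 0.189, edgeR). *Slc25a42*, a coenzyme A carrier, was between 33.8 and 44.0 CPM at 22°C (median 35.7) and between 27.8 and 39.9 CPM at 29°C (median 31.5), with a log2FC of 0.19 (SE 0.086; P-adj = 0.251), and one of 0.09 with the muscle score and 0.10 without the 3 muscle-rich libraries, which include its 2 highest mice at 22°C. The lowest *Slc25a33* at 22°C was in replicate 2 and the highest *Slc25a42* at 29°C was in replicate 5, and neither was flagged as far from the other mice. The NAD carrier *Slc25a51* had a log2FC of 0.14 (SE 0.096), and *Slc25a36*, which like *Slc25a33* carries pyrimidine nucleotides, one of 0.09 (SE 0.064). *Slc25a16* was at 0.09 (SE 0.087), the S-adenosylmethionine carrier *Slc25a26* at 0.0056 (SE 0.068), the peroxisomal cofactor carrier *Slc25a17* at -0.02 (SE 0.11) and *Slc25a32*, a folate and flavin carrier, at -0.04 (SE 0.14) on the same scale.

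Both iron carriers were tested, and neither passed in edgeR or DESeq2. *Slc25a28*, the widely expressed mitoferrin-2, was between 43.5 and 66.4 CPM at 22°C (median 54.6) and between 40.5 and 51.8 CPM at 29°C (median 46.8). Its log2FC of 0.27 (SE 0.099; P-adj = 0.189, edgeR) passed, among the alternatives run, only without 22°C replicate 6, its lowest mouse at 22°C (0.32; P-adj = 0.0953, with 0.0953 to 0.985 over all alternatives), and was 0.0095 among libraries with higher totals. *Slc25a37*, the mitoferrin-1 of red blood cell precursors, was 26.2 ± 4.68 and 28.8 ± 9.998 CPM (log2FC -0.14, SE 0.19), with its highest level, 46.9 CPM, in 29°C replicate 4. The log2 ratio of *Slc25a37* to *Slc25a28* was -1.09 ± 0.32 at 22°C and -0.74 ± 0.48 at 29°C, a difference of -0.35 that did not pass (exact permutation p = 0.132, P-adj = 0.353).

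Of the other members, which are carriers of uncertain or varied substrates, 7 of 9 were tested, 6 were higher and 1 lower by sign, and none passed in edgeR. DESeq2 called 1 (10.2% of all genes), *Slc25a34*, which also had the only unadjusted p below 0.05 among them (18.5% of all genes). *Slc25a34* (ENSMUSG00000040740.8), a carrier of uncertain substrate, was 3.37, 0.84, 0.90, 2.55, 0.97, 0.77 and 1.81 CPM in the mice at 22°C and 0.57, 0.73, 0.27, 0.71, 0.78 and 0.25 CPM at 29°C. The 3 highest mice were the 3 libraries richest in muscle RNA, and the groups overlapped by a single pair of mice, 22°C replicate 6 at 0.769 and 29°C replicate 5 at 0.781 CPM. These values rest on few reads, 20 to 64 counts per library at 22°C and 6 to 20 at 29°C. Its log2FC was 1.51 (SE 0.42; P-adj = 0.118, edgeR). The adjusted value was 0.0163 with DESeq2, 0.0831 without 22°C replicate 6, and 0.0163 to 0.462 over all alternatives. With the muscle score as a covariate the log2FC was 0.72 (P-adj = 0.446), and the 4 mice at 22°C outside the muscle-rich libraries had 0.873 ± 0.0870 CPM, beside 0.554 ± 0.237 CPM (SD, n = 6) at 29°C.

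*Slc25a35* was the most abundant of these other members per length, at 64.0 ± 13.5 CPM at 22°C and 52.0 ± 16.8 CPM at 29°C (log2FC 0.30, SE 0.19). *Slc25a46*, an outer-membrane protein of mitochondrial dynamics, had a log2FC of 0.17 (SE 0.079; P-adj = 0.283, edgeR). *Slc25a45*, *Slc25a47*, *Slc25a48* and *Slc25a53* had log2FCs between -0.15 and 0.12, with SEs of 0.12, 0.14, 0.55 and 0.14. *Slc25a43* and *Slc25a54* had 82 and 6 counts in all and were not tested.

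**Figure D5:**
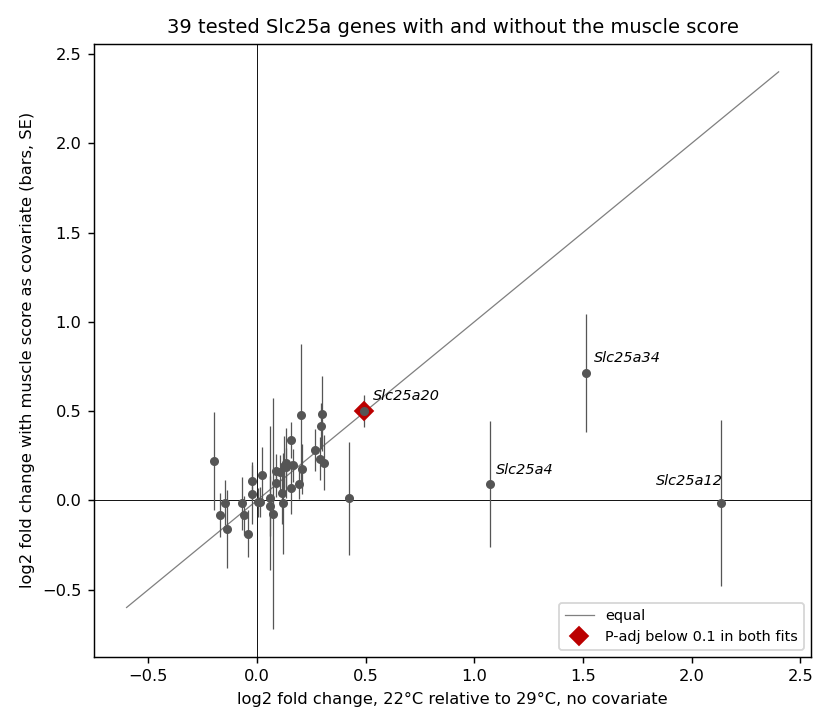
Log2FC of 39 tested *Slc25a* genes without a covariate (x axis) and with the muscle score as a covariate (y axis; bars, SE), with a line where both are equal. *Slc25a12*, *Slc25a4* and *Slc25a34* lie far below the line, at -0.0154, 0.09 and 0.72 with the covariate, and *Slc25a20* (diamond) stays at 0.50.

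Proteins that carry the family into mitochondria or share its work were read from fixed lists. Of 10 genes that import carriers, including the TIM22 complex and its small chaperones, 9 were higher by sign (median log2FC 0.14). None of the 10 passed in edgeR or DESeq2, and 1 had an unadjusted p below 0.05 (18.5% of all genes). *Timm29*, a TIM22 subunit, had the smallest p of them (log2FC 0.18, SE 0.069; P-adj = 0.202, edgeR). Of 10 pyruvate carriers, sideroflexins and porins, 8 were higher by sign and 1 passed in the other direction, beside 1.94% of all genes (1.21% lower). An unadjusted p below 0.05 was found for 3 (18.5% of all genes), and DESeq2 called 1 (10.2% of all genes). *Sfxn4*, a sideroflexin linked to respiratory complex I assembly, fell from 8.99 ± 1.06 CPM (SD, n = 6) at 29°C to 6.79 ± 0.83 CPM (SD, n = 7) at 22°C, with ranges of 7.28 to 10.3 and 5.52 to 8.05 CPM that overlapped (log2FC -0.40, SE 0.10; P-adj = 0.0991, edgeR). That value lies at the threshold, and *Sfxn4* passed in only 2 of the 13 fits that left out a mouse, those without 22°C replicates 3 and 6 (P-adj up to 0.225 in the others, without 29°C replicate 3). It was also called by DESeq2, with DESeq2 size factors, in the robust fit, with the replicate block and by limma, but under no other alternative. Over all alternatives its log2FC was -0.46 to -0.28 and its P-adj 0.0138 to 0.38. The pyruvate carrier genes *Mpc1* and *Mpc2* had log2FCs of 0.53 (SE 0.22; P-adj = 0.221) and 0.37 (SE 0.24; P-adj = 0.431).

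Exons of 14 members overlap another gene in GENCODE vM21, in 12 of them a gene on the opposite strand, such as *Rnf167* for *Slc25a11*, *Gm13068* for *Slc25a33* and *Rangrf* for *Slc25a35*. The strand setting of the counting is not given in the sources used here, so reads of these pairs cannot be told apart. *Slc25a20*, *Slc25a4*, *Slc25a12* and *Slc25a34* have no such overlap.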

How the data were processed

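RNA of gluteal WAT from 13 mice was sequenced by the authors, who aligned reads with STAR 2.7.5a, made gene counts with featureCounts, and deposited these raw counts and regularized log2 values from DESeq2. The submitters' processing notes name GRCm39. The annotation is not given in the sources used here. Symbols were matched by identifier without version (34006 of 34419 genes), exon lengths came from GENCODE vM21, and windows from RefSeq on GRCm38.p6.

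Temperatures were compared on the deposited counts in edgeR 4.0.16 under R 4.3.3 (TMM, filterByExpr, quasi-likelihood F test, Benjamini-Hochberg adjustment over 17779 genes, no covariate). The SE was taken as the log2FC over the root of the F statistic. Library sizes scaled by TMM underlie the CPM, and log2 CPM have a prior count of 2. A count of 0 allows 3 counts, or 0.113 to 0.158 CPM depending on the library, for counting error only. The chi-square per gene was at least 17.1 in all 78 pairs of libraries, so none is a copy of another. Pairs of paralogs were compared by exact permutation. The main methods were tested on simulated data.

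Members and lists were chosen with earlier results of these data known. Values are given for *Slc25a20*, members with P-adj below 0.1, an unadjusted p below 0.05 or groups that do not overlap, the most abundant member of each role per length, paralog pairs, and the carnitine shuttle, other SLC25 and called companion genes. *Acly*, *Me1*, *Got1*, *Timm29*, *Mpc1*, *Mpc2* and members such as *Slc25a10*, *Slc25a27* and *Slc25a44* fall outside that rule. The values of 1 tested member, which is counted in the totals, are not reported here or drawn. Alternatives tried were DESeq2 1.42.0, its size factors in edgeR, no filter, a mean of at least 10 counts, a robust fit, the replicate number as a block, the muscle score or cluster of library totals as a covariate, libraries with higher totals only, limma 3.58.1 on the deposited log2 values, a threshold of 0.05, prior counts of 0.5 and 5 for the ratios, and leaving out each mouse. Leaving out the 3 libraries highest in muscle counts was added after the data were seen.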

Additional observations from a re-analysis of the deposited data

Results flagged for a closer look

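Of 74 sets of levels of 1 gene at 1 temperature that were examined, 4 held a mouse far from the others by Dixon's criterion on log2 CPM, and chance alone gives about 1 in 20. *Slc25a24* was 16.9 CPM in 29°C replicate 5, where the next lowest mouse at 29°C had 22.4 CPM. *Slc25a13* was 2.03 CPM in 29°C replicate 4, where the next highest had 0.703 CPM, and the fold change of this gene without that mouse was 0.59 on the log2 scale. *Ucp2* was 74.3 CPM in 22°C replicate 1, a muscle-rich library, where the next lowest had 118 CPM, and 207 CPM in 29°C replicate 4, where the next highest had 121 CPM. That last mouse also had the highest *Slc25a37* and the lowest *Slc25a1* and *Slc25a10*. The cause of these values was not tested.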

How the results depend on the processing

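Under all other alternatives *Slc25a20* kept its call, and that call was lost with the totals cluster as a covariate (log2FC 0.37) and among libraries with higher totals only (0.36), which compare 2 mice at 22°C with 6. In these 2 fits 0 members were called, the median of the members was 0.0237 and 0.0157, and 1 and 1 genes were called higher and 3 and 7 lower over all genes. DESeq2 called 3 members higher and 1 lower (the higher ones being *Slc25a12*, *Slc25a20* and *Slc25a34*), 5 companion genes, and 914 genes higher and 762 lower. Over all genes, where 130 were called higher and 215 lower, the counts were 11 and 31 with no filter, 14 and 27 with the muscle score, 11 and 29 at P-adj below 0.05, and 18 and 25 without the 3 libraries highest in muscle counts. Companion genes called numbered 0 in each of these 4 fits, in both fits on library totals and with a mean of at least 10 counts. The cause of these shifts was not tested.

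The groups share replicate numbers, but the labels do not say whether same-numbered mice were paired, and the cause of any likeness between them was not tested. Deviations of same-numbered mice correlated between 0.0508 and 0.513, over 0.1 in 5 of 6 pairs, and 4 of 6 libraries at 22°C matched their own number best. With the replicate block, which drops the unpaired 22°C replicate 7, 1 member was called higher (*Slc25a20*, log2FC 0.52), and 79 genes were called higher and 135 lower. The block reversed 2 of 40 tested members, *Slc25a14* (0.0366) and *Slc25a17* (0.0204), and the companion genes *Mtch1* (0.0113), *Cpt1c* (-0.0360) and *Acsl3* (-0.0282), none of them called.

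No member or companion gene called in the main edgeR fit reversed, and uncalled here means not called in that fit. DESeq2 called *Slc25a12* and *Acsl6*, which are among the genes below. Uncalled values that changed sign with the cluster as a covariate and among higher totals were *Slc25a1* (-0.0472 and -0.0590), *Slc25a5* (-0.15 and -0.16), *Slc25a24* (0.11 and 0.10), *Slc25a13* (-0.0330 and -0.0400), *Slc25a36* (-0.0497 and -0.0589), *Slc25a40* (-0.0417 and -0.0500), *Slc25a44* (-0.0070 and -0.0153), *Slc25a47* (-0.11 and -0.11), *Slc25a48* (-1.14 and -1.14), *Slc25a53* (-0.31 and -0.32) and the companion *Crot* (0.0367 and 0.0282), with *Slc25a26* (-0.0013) among higher totals. With the muscle score and without the 3 muscle-rich libraries they were *Slc25a12* (-0.0154 and -0.0298), *Slc25a14* (0.0331 and 0.0855), *Slc25a17* (0.11 and 0.0395), *Slc25a25* (-0.0151 and -0.21), *Slc25a26* (-0.0115 and -0.0171), *Slc25a48* (-0.0738 and -0.18), *Mtch1* (0.0590 and 0.0251), *Acsl3* (-0.25 and -0.24) and *Acsl6* (-0.46 and -0.58), with *Slc25a10* (0.22), *Slc25a40* (-0.0087), *Slc25a53* (-0.0326) and *Cpt1a* (0.0236) in the former and *Slc25a3* (-0.0044), *Slc25a27* (-0.0069) and *Cpt1c* (-0.0791) in the latter. *Cpt1c* was also negative with limma (-0.0190).

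When each mouse was left out, 1 to 3 members were called higher (3 without 22°C replicate 6: *Slc25a20*, *Slc25a28* and *Slc25a34*), 0 to 1 companion genes, and over all genes 5 to 295 were higher and 27 to 357 lower, with the lowest counts without 29°C replicate 3 and the highest without 22°C replicate 6. Leaving out 22°C replicate 2 alone moved neither of these counts by over 1.5 times. Log2FCs that crossed 0 ranged from -0.0810 to 0.19 for *Acsl3*, -0.0708 to 0.0211 for *Acsl4*, -0.14 to 0.12 for *Cpt1c*, -0.0015 to 0.14 for *Cpt2*, -0.0529 to 0.0102 for *Mtch1*, -0.0649 to 0.0788 for *Slc22a4*, -0.33 to 0.14 for *Slc25a10*, -0.0670 to 0.59 for *Slc25a13*, -0.0881 to 0.0499 for *Slc25a14*, -0.0689 to 0.0696 for *Slc25a17*, -0.0249 to 0.25 for *Slc25a25*, -0.0171 to 0.0406 for *Slc25a26*, -0.0910 to 0.12 for *Slc25a32*, -0.23 to 0.0538 for *Slc25a37*, -0.0107 to 0.0353 for *Slc25a40*, -0.36 to 0.31 for *Slc25a48*, -0.0368 to 0.14 for *Slc25a5*, -0.19 to 0.0539 for *Ucp2* and -0.15 to 0.0513 for *Ucp3*. Members with few counts, such as *Slc25a34* and *Slc25a13*, are limited by depth.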
